A study of Mus musculus with 12 samples.

Results

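miR-26a and miR-26b are the mouse members of the miR-26 family, and they were followed here in small RNA libraries from cardiac mitochondria of db/db and WT mice. The rows were chosen by name: both guide arms, mmu-miR-26a-5p and mmu-miR-26b-5p, and every listed row of the opposite arm, miR-26a-1-3p, miR-26a-2-3p and miR-26b-3p. These are 5 of the 932 rows of the table. The db/db group held 6 libraries from mice homozygous for the db mutation of the leptin receptor gene, which become obese and diabetic, and the WT group held 6 libraries from wild-type mice. No drug or other treatment, and no age or sex, is given in the labels. All 12 libraries were labelled as the mitochondrial microRNA of heart, and no other fraction of the tissue was analysed here. Sample numbers are not tied to animals in the labels, so that every p-value rests on a scatter among samples that may be technical.

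Genes of the miR-26 family lie in introns of the Ctdsp genes, which encode small phosphatases of the C-terminal domain of RNA polymerase II, and the miRNA is made from the same transcript as its host. Drosha and Dicer cut each hairpin into a duplex, Argonaute keeps the guide strand and the passenger strand is mostly degraded. The family is expressed widely in differentiated tissue. It is known for repressing Ezh2, a histone methyltransferase, and the cyclin genes Ccnd2 and Ccne2, and miR-26a has been described in heart as restraining hypertrophy.

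The mature sequences show which reads can be told apart. They were taken from RefSeq tables of build GRCm38.p6, in which all 5 rows were found by name, and are written from the 5′ end with the seed, bases 2 to 8, in capitals.
miR-26a-5p: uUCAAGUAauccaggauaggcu
miR-26b-5p: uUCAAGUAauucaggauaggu
miR-26a-1-3p: cCUAUUCUugguuacuugcacg
miR-26a-2-3p: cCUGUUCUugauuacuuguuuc
miR-26b-3p: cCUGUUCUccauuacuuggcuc

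Both guide arms carried the same seed, and they were the only 2 of 1627 mature mouse miRNAs of at least 20 bases in that table with it. Counted from 1 at the 5′ end, with the base of miR-26a-5p first, they differed by C11U and C21U, and miR-26a-5p had 22 bases against 21 for miR-26b-5p. Within the first 20 bases this left 1 difference, and the next nearest mature miRNA, miR-6927-5p, had 8. A read cut to its first 20 bases can therefore equal the other arm after a single base error, while a full-length read cannot, and how many mismatches the mapping allowed is not stated. The passenger arms were further apart: miR-26a-1-3p and miR-26a-2-3p differed at 6 of 22 positions, and miR-26a-2-3p and miR-26b-3p at 4, with the same first 8 bases.

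The hairpins show why the passenger arms matter for miR-26a. They are written with the mature arms in capitals.
Mir26a-1: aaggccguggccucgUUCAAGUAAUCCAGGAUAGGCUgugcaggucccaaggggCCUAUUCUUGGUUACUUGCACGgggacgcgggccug
Mir26a-2: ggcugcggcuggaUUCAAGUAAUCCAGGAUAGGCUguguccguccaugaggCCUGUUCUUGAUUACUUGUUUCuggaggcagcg
Mir26b: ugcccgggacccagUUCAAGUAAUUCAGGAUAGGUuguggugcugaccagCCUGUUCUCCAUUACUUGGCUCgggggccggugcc

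Mir26a-1 and Mir26a-2 give an identical guide arm, so reads of miR-26a-5p cannot be assigned to either gene, whereas their passenger arms differ. In the GRCm38 annotation Mir26a-1 lies at chr9:119031796-119031885 on the plus strand, in intron 5 of 7 of Ctdspl. Mir26a-2 lies at chr10:126995530-126995613 on the plus strand, in intron 5 of 7 of Ctdsp2, and 2 shorter annotated Ctdsp2 transcripts begin at the last base of its hairpin. Mir26b lies at chr1:74394310-74394394 on the plus strand, in intron 4 of 6 of Ctdsp1. Each host was transcribed from the same strand as its miRNA. These positions serve for annotation only, since the submitters' processing notes name build GRCm39, and the host mRNAs were not measured in these libraries.

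The deposited values were used as reads scaled to the same library total (RPM), with no length term; at 21 to 22 bases per miRNA, levels of different members can be set side by side, apart from differences in ligation and amplification between sequences. Recovered depth, the sum of the counts of all rows, ranged from 412749 to 1382046 reads per library, so that 1 read was worth 0.724 to 2.42 RPM. Some rows held identical values, so a read may have been counted in more than 1 row. A value of 0 allows up to 3 reads, which is 2.17 to 7.27 RPM depending on the library, and covers counting error only. The libraries carried the miRNAs of heart muscle: the muscle miRNA miR-133a-3p averaged 341153 ± 27552 RPM in db/db and 323867 ± 22817 RPM in WT libraries (SD, n = 6 each). Of 6 muscle markers tested, 4 log2 fold changes of db/db over WT were negative and 2 positive, with a median of -0.26. Limma called 0 of them. At an unadjusted p under 0.05 it had 1, miR-208a-3p at -1.34, against 8.98% of all rows tested. That row averaged 49.1 RPM, with an SD within genotypes of 1.42 on the log2(RPM + 1) scale. Its opposite arm, miR-208a-5p, was not among the markers, averaged 594 RPM and stood at -0.16.

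mmu-miR-26a-5p was an abundant and steady miRNA of these preparations, and no difference between genotypes was detected. Its level ran from 18866 to 22247 RPM with a median of 21369 RPM in db/db libraries, and from 17549 to 22541 RPM with a median of 21063 RPM in WT libraries. The range of the db/db libraries lay wholly inside that of the WT libraries. It ranked 8th to 13th among all rows in the individual libraries. The mean was 20885 ± 1384 RPM in db/db and 20563 ± 1769 RPM in WT libraries (SD, n = 6 each). The log2 fold change of db/db over WT was 0.02 ± 0.12 (SE), with a 95% interval of -0.21 to 0.26 and a limma adjusted p of 0.950, and 3 of 6 db/db libraries lay above the WT median. On the linear scale that interval spans 0.863-fold to 1.20-fold. In these preparations fewer cells or mitochondria carrying a miRNA and less of it in each cannot be told apart.

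mmu-miR-26b-5p, the minor guide arm, was more variable and likewise did not pass the test. It ran from 1417 to 2112 RPM with a median of 1590 RPM in db/db libraries, and from 1265 to 2194 RPM with a median of 1445 RPM in WT libraries. The ranges overlapped almost fully, and the highest library of each genotype was the one numbered 3, at 2112 RPM in db/db and 2194 RPM in WT. It ranked 50th to 57th in the individual libraries. The mean was 1652 ± 257 RPM in db/db and 1547 ± 334 RPM in WT libraries (SD, n = 6 each). The log2 fold change was 0.11 ± 0.16 (SE), with a 95% interval of -0.21 to 0.42 and a limma adjusted p of 0.785, and 5 of 6 db/db libraries lay above the WT median. Without WT library 3 the log2 fold change was 0.21 (limma adjusted p = 0.709), and without db/db library 3 it was 0.03 (limma adjusted p = 0.936).

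**Figure D1:**
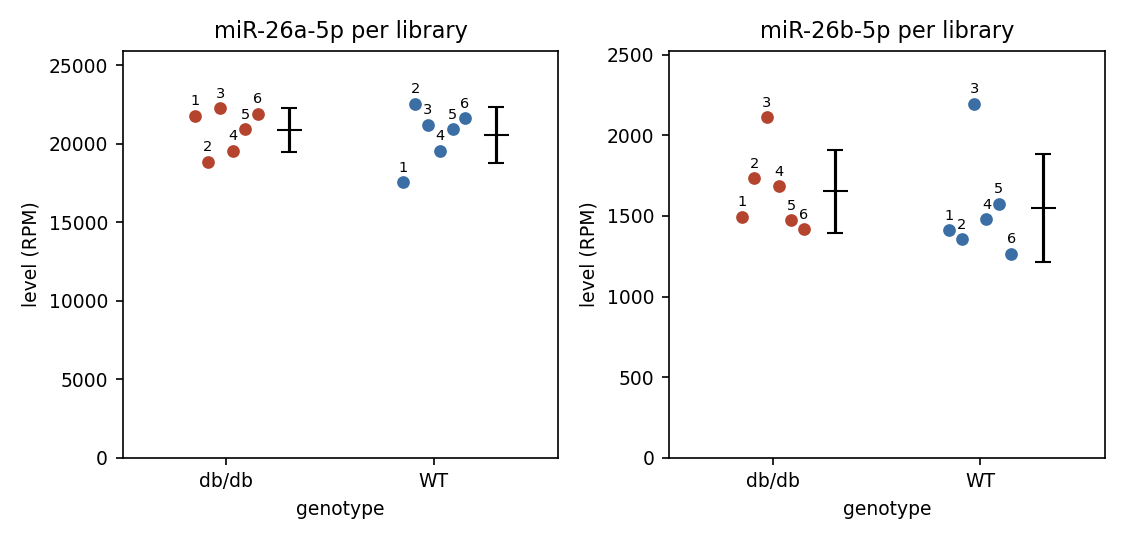
Level of miR-26a-5p (left) and miR-26b-5p (right) in RPM in each library, with the sample number above the point and the mean ± SD beside each genotype (n = 6 each). The genotypes overlap in both panels, and the libraries numbered 3 stand highest for miR-26b-5p, at 2112 RPM in db/db and 2194 RPM in WT.

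Across the whole table limma called 1 of 646 rows tested at an adjusted p under 0.05, or 0.155%, and no miR-26 row was among them. That row was miR-22-3p, a muscle miRNA, lower in db/db libraries with a log2 fold change of -0.56 ± 0.13 (SE; adjusted p = 0.0466 by limma). With median-of-ratios or TMM scaling the calls were 2 higher and 0 lower in place of 0 higher and 1 lower. Of the 5 miR-26 rows 4 averaged at least 1 RPM and were tested, all but miR-26a-1-3p. Of these 4, limma had 1 at an unadjusted p under 0.05, against 8.98% of all rows tested in either direction. It was the passenger arm miR-26a-2-3p. On recovered reads edgeR called 0 of the 4. DESeq2 also called 0, but it gave no adjusted p for miR-26a-2-3p and miR-26b-3p and so could not call them. The genotypes overlapped in each of the 4, while they did not overlap in 0.929% of rows tested.

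**Figure D2:**
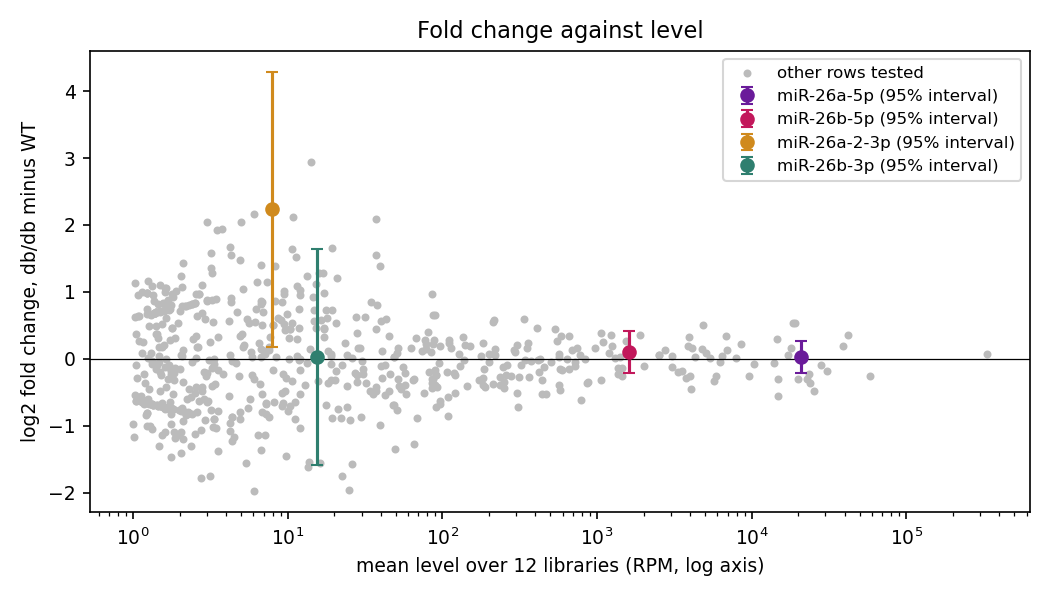
Log2 fold change of db/db over WT against the mean level over 12 libraries (RPM, log axis) for all 646 rows tested, with the 4 tested miR-26 rows in colour and their 95% intervals. The intervals of miR-26a-5p (-0.21 to 0.26) and miR-26b-5p (-0.21 to 0.42) include 0 and are narrow beside those of the 3p arms.

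The balance between the guide arms was also compared within each library, where the scaling to a library total cancels. miR-26a-5p exceeded miR-26b-5p in all 12 libraries. The excess was 10.5-fold to 15.5-fold with a median of 12.9-fold in db/db libraries, and 9.66-fold to 17.1-fold with a median of 13.2-fold in WT libraries. The lowest and the highest ratios of the whole set were both in WT libraries, number 3 and number 6. As a log2 ratio, miR-26b-5p over miR-26a-5p averaged -3.67 ± 0.24 in db/db and -3.75 ± 0.30 in WT libraries (SD, n = 6 each). The difference of 0.08 was smaller than either SD (two-sided exact permutation test over 924 assignments, p = 0.600). The 5 rows together held 2.26% ± 0.141 of the reads counted over all rows in db/db and 2.21% ± 0.183 in WT libraries (SD, n = 6 each).

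**Figure D3:**
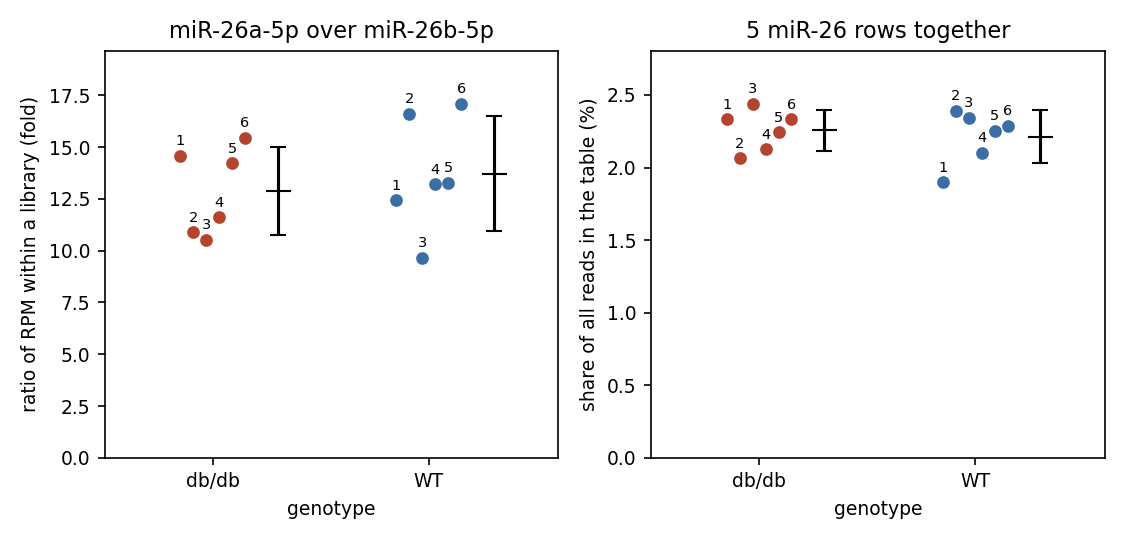
Ratio of miR-26a-5p to miR-26b-5p within each library (left, fold) and the share of all reads in the 5 miR-26 rows (right, %), with sample numbers and the mean ± SD beside each genotype (n = 6 each). The ratio lies between 9.66-fold and 17.1-fold, and the share averages 2.26% in db/db and 2.21% in WT libraries.

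The members differed in how steady they were from library to library. Pooled within genotypes on the log2(RPM + 1) scale, the SD of miR-26a-5p was 0.11, the 4th smallest of the 64 rows that averaged at least 1000 RPM, whose median SD was 0.25. That of miR-26b-5p was 0.25, the 32nd smallest. The coefficient of variation of miR-26a-5p was 6.63% in db/db and 8.60% in WT libraries; counting error alone, which is small at this depth, gives 0.826% in db/db and 0.820% in WT. For miR-26b-5p it was 15.6% in db/db and 21.6% in WT libraries, where counting error alone gives 2.91% in db/db and 2.98% in WT.

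**Figure D4:**
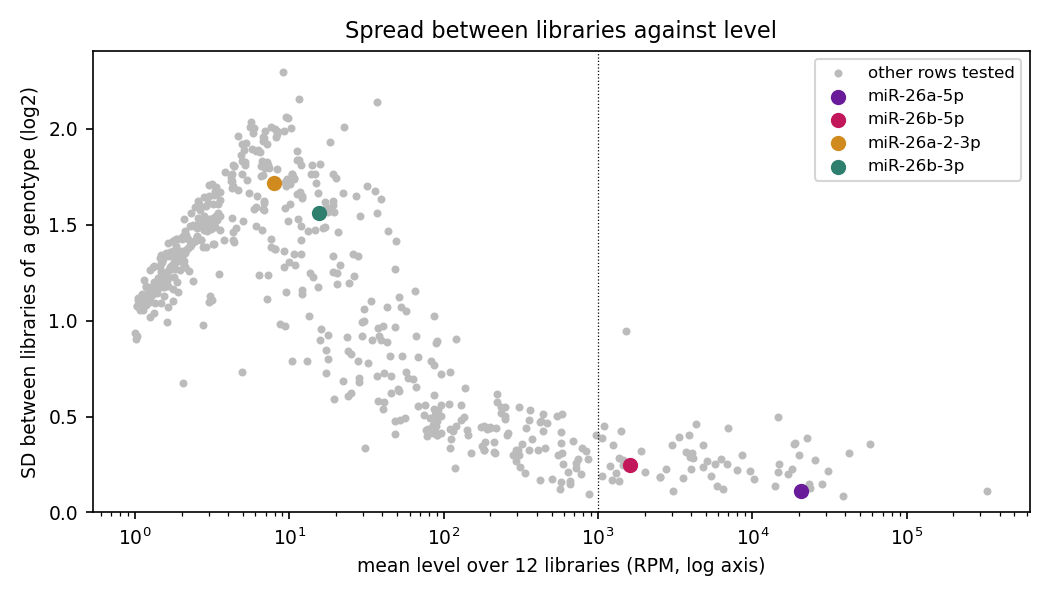
SD between libraries of a genotype on the log2(RPM + 1) scale against the mean level over 12 libraries (RPM, log axis) for all 646 rows tested, with the 4 tested miR-26 rows in colour; the dotted line marks 1000 RPM. miR-26a-5p, at 0.11, lies at the lower edge of the abundant rows, and miR-26b-5p, at 0.25, at their middle.

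The levels of the guide arms showed little correlation. Over the 12 libraries Pearson's r between miR-26a-5p and miR-26b-5p, on log2(RPM + 1), was 0.05, which put each in the middle of the other's order of likeness: miR-26b-5p came 79th among 145 named miRNAs averaging at least 100 RPM set against miR-26a-5p, and miR-26a-5p came 74th against miR-26b-5p. Most like miR-26a-5p were miR-99a-5p (r = 0.77), miR-140-3p (r = 0.70) and miR-322-3p (r = 0.68). Most like miR-26b-5p were let-7j (r = 0.74), let-7f-5p (r = 0.74) and let-7i-5p (r = 0.73). These correlations describe 12 libraries that share depth and composition, with each coefficient taken from the top of 145.

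The passenger arms were rare. The 5p arms held 99.9% ± 0.0304 of the family's reads in db/db and 99.9% ± 0.0436 in WT libraries (SD, n = 6 each). The 3p arm made up 0.967% ± 0.903 of miR-26b reads in db/db and 0.970% ± 0.486 in WT libraries. For miR-26a, whose 3p arms were counted together, it made up 0.0671% ± 0.0526 in db/db and 0.0109% ± 0.0185 in WT libraries (SD, n = 6 each).

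The miR-26a passenger reads came almost entirely from the sequence of Mir26a-2, the Ctdsp2 gene. Over all libraries miR-26a-2-3p had 81 reads, against 2 for miR-26a-1-3p, the arm of the Ctdspl gene. Those 2 reads were in db/db library 5, the deepest, and the other 11 libraries were at 0. Transcription of the host genes was not measured, and these counts do not stand in for it.

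miR-26a-2-3p was found in more db/db than WT libraries, on few reads. It had 0, 19, 15, 2, 26 and 6 reads in db/db libraries 1 to 6, and 0, 0, 0, 0, 9 and 4 reads in WT libraries 1 to 6. It was thus above 0 in 5 of 6 db/db and 2 of 6 WT libraries, and the genotypes overlapped. In all, 2.01% of rows tested were above 0 in at least 3 more db/db than WT libraries. That base includes rows above 0 in every library, which cannot meet this measure. The level averaged 13.6 ± 10.3 RPM in db/db and 2.31 ± 3.90 RPM in WT libraries (SD, n = 6 each). The log2 fold change on log2(RPM + 1) was 2.23 ± 1.03 (SE), with a 95% interval of 0.17 to 4.29. It did not pass over all rows (limma adjusted p = 0.543); its unadjusted p of 0.0342 was among the 4.33% of rows that were higher at an unadjusted p under 0.05. This value depended on the pseudocount, with 0.85 at 10 RPM and 3.84 at 0.1 RPM.

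For miR-26b-3p no difference between genotypes was detected. It had 25, 2, 6, 26, 15 and 2 reads in db/db libraries 1 to 6, and 10, 11, 23, 0, 16 and 13 reads in WT libraries 1 to 6. The db/db libraries held both the highest values and some of the lowest ones, and WT library 4 was at 0. The level averaged 15.7 ± 14.4 RPM in db/db and 15.5 ± 9.17 RPM in WT libraries (SD, n = 6 each). The log2 fold change was 0.03 ± 0.81 (SE), with a 95% interval of -1.58 to 1.64 (limma adjusted p = 0.993), which includes a 2-fold change in either direction. Its sign turned with single libraries: the log2 fold change was -0.68 without WT library 4 and -0.28 without db/db library 1 or db/db library 4.

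Within the db/db group libraries 1 and 4 stood apart in both 3p arms, an observation made after their values were seen. They had the highest miR-26b-3p, at 34.4 and 33.6 RPM, and the lowest miR-26a-2-3p, at 0 and 2.58 RPM. In the other 4 db/db libraries miR-26a-2-3p was the higher of the pair, and among these the order was mixed. Library 2 had the highest miR-26a-2-3p and the lowest miR-26b-3p of the group, at 26.3 and 2.76 RPM. Libraries 3 and 5 also stood in opposite order. Library 6, with 6 and 2 reads, was below libraries 3 and 5 in both arms. In WT libraries miR-26b-3p was the higher in 5 of 6, and both arms were at 0 in library 4. The sum of all 3p arms was 29.5 ± 5.99 RPM with a range of 19.4 to 36.2 RPM in db/db libraries (SD, n = 6). In WT libraries the sum was 17.8 ± 10.1 RPM with a range of 0 to 28.7 RPM (SD, n = 6). In db/db libraries the SD of the sum was below those of miR-26a-2-3p (10.3 RPM) and miR-26b-3p (14.4 RPM). WT libraries showed the reverse, with SDs of 3.90 RPM for miR-26a-2-3p and 9.17 RPM for miR-26b-3p.

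**Figure D5:**
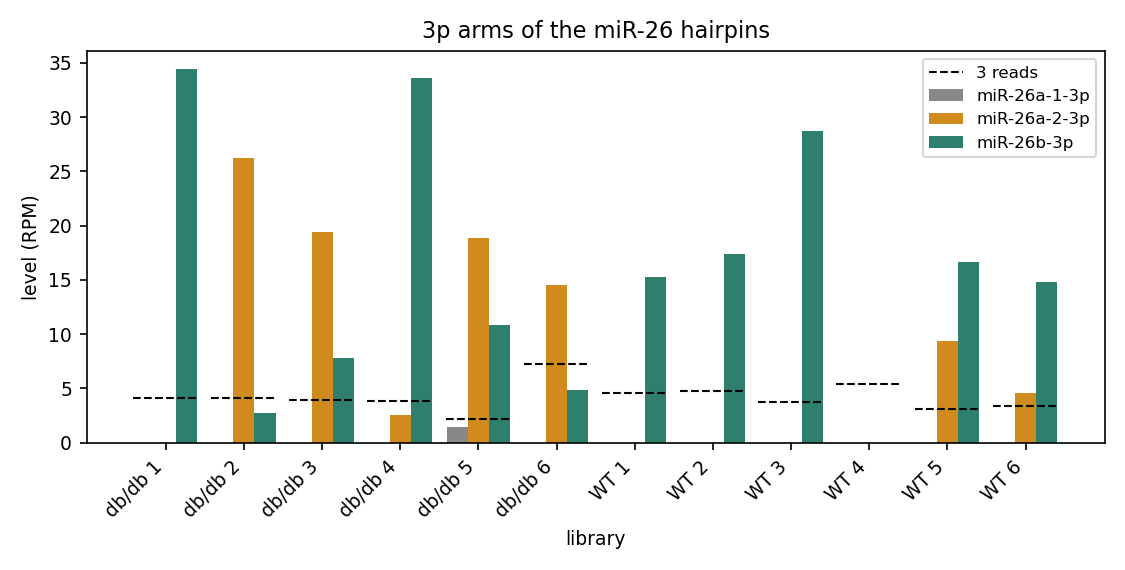
Level in RPM of the 3p arms miR-26a-1-3p, miR-26a-2-3p and miR-26b-3p in each library, with a dashed line at the level of 3 reads in that library. miR-26a-2-3p is above 0 in 5 of 6 db/db and 2 of 6 WT libraries, and miR-26b-3p reaches 34.4 RPM in db/db library 1.

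In order of mean level over all libraries the members stood as miR-26a-5p, miR-26b-5p, miR-26b-3p, miR-26a-2-3p and miR-26a-1-3p. The guide arms did not overlap with each other or with the passenger arms in any library. miR-26b-3p and miR-26a-2-3p were neighbours whose levels did not differ beyond their spread, at 15.6 ± 11.5 and 7.96 ± 9.47 RPM (SD, n = 12 each), with miR-26b-3p the higher in 7 of 12 libraries.

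Other miRNAs with targets or settings shared with miR-26 were read from 4 lists, of which limma called 0 members. Their counts at an unadjusted p under 0.05 stand beside 58 of 646 rows, or 8.98%, over the whole table. Of the miRNAs known to restrain the cell cycle, such as the let-7, miR-15 and miR-34 families, 15 were tested, with 10 positive values and a median log2 fold change of 0.14. The 5 negative values were those of the miR-15 family, from -0.62 to -0.12, and the let-7 and miR-34 members of this list were positive. This split depends on how the lists were drawn. miR-98-5p, of the let-7 family but placed in the hypertrophy list, stood at -0.73. Limma had 4 of the list at an unadjusted p under 0.05, edgeR called 0 and DESeq2 called 1, let-7a-5p. The lowest value, of miR-195a-5p, was among the 4. The most abundant, let-7c-5p, stood at 0.22 ± 0.14 and let-7a-5p at 0.34 ± 0.14 (log2 fold change, SE).

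Of the miRNAs described as restraining cardiac hypertrophy 6 were tested, with 2 positive values and a median log2 fold change of -0.17. Limma had 1 at an unadjusted p under 0.05, miR-98-5p at -0.73. In that list miR-133a-3p stood at 0.07 ± 0.11 and miR-1a-3p at -0.25 ± 0.14 (log2 fold change, SE). Of the insulin and glucose miRNAs 6 were tested, with 1 positive value, a median of -0.17 and 2 at an unadjusted p under 0.05; miR-143-3p stood at -0.48 ± 0.13 and miR-29a-3p at 0.05 ± 0.13. edgeR and DESeq2 called 0 in either of these lists. Of other miRNAs that target Ezh2 3 were tested, with 1 positive value, a median of -0.09 and 0 at an unadjusted p under 0.05 or called by edgeR or DESeq2; miR-101a-3p stood at 0.03 ± 0.18 and miR-101b-3p at -0.09 ± 0.22. Over all 646 rows tested 308 values were positive and the median was -0.04.

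Markers of other cells were present in both genotypes, and their part in the level of miR-26 was not tested. Of 22 tested markers of endothelium, fibroblasts and smooth muscle, leukocytes, red blood cells and liver, limma called 0. At an unadjusted p under 0.05 there were 9, against 8.98% of all rows, and 5 of the 9 were among the 6 fibroblast and smooth muscle markers. edgeR called 1 of the 22, miR-486a-5p, and DESeq2 called 2, miR-486a-5p and miR-223-3p. Fibroblast and smooth muscle markers summed to 27173 to 44270 RPM in db/db and 37570 to 52840 RPM in WT libraries. Most of that sum was miR-143-3p, at 21295 ± 4450 RPM in db/db and 29619 ± 5378 RPM in WT libraries (SD, n = 6 each). The 6 markers did not share a direction, with 4 log2 fold changes negative and 2 positive, miR-214-3p at 0.45 and miR-199a-3p at 0.06. Red blood cell markers summed to 18284 to 30731 RPM in db/db and 9935 to 21146 RPM in WT libraries. Most of that sum was miR-486a-5p, at 21760 ± 3952 RPM in db/db and 15389 ± 3987 RPM in WT libraries (SD, n = 6 each), a miRNA whose count is uncertain because miR-486b-5p is a near-identical copy. The other red blood cell markers did not share a direction. Their log2 fold change was 0.26 for miR-451a (limma adjusted p = 0.717), 0.60 for miR-144-3p and -0.53 for miR-144-5p. The sum therefore follows miR-486a-5p and was not taken as a measure of blood in the samples. Endothelial markers summed to 16719 to 26239 RPM in db/db and 20026 to 30425 RPM in WT libraries. Leukocyte markers summed to 3425 to 7087 RPM in db/db and 4008 to 5766 RPM in WT libraries, and liver markers to 347 to 640 RPM in db/db and 474 to 787 RPM in WT libraries. The sums overlapped between genotypes for each of these cell types.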

How the data were processed

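Small RNA of cardiac mitochondria was measured in 6 db/db and 6 WT samples, grouped by their titles. Adapters were ligated to total RNA, followed by reverse transcription, PCR and gel purification, per the labels' protocols. The authors deposited values named TPM that were used as RPM, because each column has the same sum and holds whole multiples of 1 read's worth, without a length term. GRCm39 is the build in the submitters' processing notes; no source states the aligner, its mismatches or the miRNA annotation. After solving for each library's total, 100% of values came within 0.01 of a whole read. No library matched another within sampling noise (66 pairs, chi-square per degree of freedom at least 18.6).

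Genotypes were compared by limma 3.58.1 in R 4.3.3, on log2(RPM + 1) with a variance trend, for the 646 rows averaging at least 1 RPM in the libraries fitted. Tests were two-sided with Benjamini-Hochberg adjustment, and calls had an adjusted p under 0.05. The design had foreseen TPM; its log-scale test was kept. A fold change on this scale understates changes of low miRNAs. edgeR 4.0.16 (quasi-likelihood) and DESeq2 1.42.0 were run on recovered reads. Other alternatives were pseudocount, filter, scaling, trend, library weights, replicate block, sample numbers 1 to 3 and 4 to 6, and libraries left out. The fit was tested on simulated data. Named miRNAs were the miR-26 rows, called rows, the 3 most correlated with each guide arm and the 2 most abundant of each list (1 list is not reported here); members named for an edgeR or DESeq2 call, both miR-144 arms and miR-486b-5p were added after their values were seen. Members, lists and alternatives were chosen with earlier results of these data known. Plots were made in Python 3.11.15 with matplotlib 3.10.9.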

Additional observations from a re-analysis of the deposited data

Results flagged for a closer look

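In 13 groups of 6 values searched for a library far from the rest, 2 stood out, where chance flags about 1 in 20 groups, or 0.65 here. miR-26b-5p was 2194 RPM in WT library 3 and at most 1576 RPM in the other WT libraries, a gap of 0.665 of the range. miR-26a-1-3p was 1.45 RPM, or 2 reads, in db/db library 5 and 0 in the other db/db libraries. With 5 of 6 values at 0 any single read meets this measure, and 2 reads are under the 3 that a value of 0 allows, so that it carries no weight beside the number given by chance.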

How the results depend on the processing

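No miR-26 row passed under any of the alternatives run; DESeq2 gave no adjusted p for miR-26a-2-3p and miR-26b-3p. The log2 fold change of db/db over WT ranged from -0.02 to 0.09 for miR-26a-5p (adjusted p at least 0.632), from 0.03 to 0.21 for miR-26b-5p (at least 0.588), and from 0.85 to 3.84 for miR-26a-2-3p (at least 0.207, by edgeR). miR-26a-5p turned to -0.0035 without WT 4 and db/db 6, and ranged from -0.0205 (without WT 1) to 0.0531 with 1 library left out. miR-26b-3p turned to -0.0626 with a pseudocount of 10 RPM, -0.11 after quantile normalization, -0.97 within sample numbers 1 to 3 and -0.47 without WT 4 and db/db 6, and ranged from -0.68 (without WT 4) to 0.36 with 1 library left out. The unadjusted p of miR-26a-2-3p was 0.0513 by edgeR, and with 1 library left out ranged from 0.00815 to 0.0810. The log2 ratio of the guide arms differed by 0.013 to 0.18 over its alternatives and the linear ratio by 0.0038 (exact permutation test, p of 0.225 to 0.924); within sample numbers 1 to 3 or 4 to 6 the smallest p that the exact permutation test can give is 0.1. The share of reads in the family differed by -0.02 to 0.08 percentage points with 1 library left out.

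Calls over the whole table, 1 in the fit reported, fell to 0 after quantile normalization, without a trend, without WT 4 and db/db 6, with either other pseudocount (0.1 or 10 RPM), and with a filter at 10 RPM, at 100 RPM or none; they were 2 after median-of-ratios or TMM scaling, both higher in db/db; 3 by edgeR; 13 by DESeq2; 10 with sample numbers 1 to 3 and 4 to 6 as a factor; 3 within numbers 4 to 6; and 0 to 7 with 1 library left out (0 without db/db 1, 2, 3 or 6 or WT 2, 4, 5 or 6; leaving out db/db 5 gave 7, db/db 4 gave 3, and WT 1 and WT 3 gave 6 each). The cause was not tested. With the replicate block there were 9 calls, none a miR-26 row. The SE was then 0.09 for miR-26a-5p and 0.12 for miR-26b-5p, against 0.12 and 0.16 without it. Same-numbered libraries correlated at -0.05 to 0.12 over all rows tested, and 1 of 6 correlated best with its own number. This check weighs rows of few reads like abundant ones, so it cannot decide whether the numbers pair the libraries.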
